A study of Homo sapiens with 24 samples.

Results

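HepG2 cells that carried either of 2 guide RNAs against KEAP1 were compared with each other, guide sgKeap1-2 against guide sgKeap1-1, with the difference averaged over both siRNA treatments. The comparison was between 16 of the 24 libraries of the series, 8 for each guide, over 12009 gene IDs, which are all the IDs in the count table. The remaining libraries, with a control guide, entered the same fit and so its estimate of the spread. HepG2 is a human liver cancer line with hepatocyte-like gene expression. The cells had been transduced with lentiCRISPRv2, a lentivirus that delivers Cas9 together with a guide, and were selected with puromycin, and no source used here names a single clone. The 4 groups with a KEAP1 guide were siNC; sgKeap1-1, siNC; sgKeap1-2, sitfeb/sitfe3; sgKeap1-1 and sitfeb/sitfe3; sgKeap1-2, with 4 libraries each, where siNC is a non-targeting siRNA and sitfeb/sitfe3 is a mixture of siRNAs against TFEB and TFE3. The control guide sgCtrl, directed at the AAVS1 locus, had 4 libraries under each siRNA, and its levels are given beside those of the KEAP1 guides. RNA was extracted 72 h after transfection in every group.

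KEAP1 is the substrate adaptor that brings the transcription factor NRF2, encoded by NFE2L2, to the CUL3 ubiquitin ligase, so that NRF2 is degraded in unstressed cells. When KEAP1 is lost or its cysteines are modified, NRF2 accumulates and activates genes for glutathione synthesis, thioredoxin recycling, NADPH supply and detoxification through antioxidant response elements. TFEB and TFE3 are related transcription factors that drive lysosomal and autophagy genes. Guides against the same gene can differ in how often they disrupt it and in the off-target sites they cut, and the comparison between them asks how far the transcriptomes made by the 2 guides were alike.

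The libraries were made from the 3′ ends of mRNA and held between 3527000 and 4600951 reads. After low counts were removed 11152 genes were tested. Libraries of the same group had log2 levels that correlated with a median r of 0.976 across genes, and libraries of different KEAP1 guides under the same siRNA had a median r of 0.975. Among the 16 libraries the replicate 1 of sitfeb/sitfe3; sgKeap1-2 and that of siNC; sgKeap1-1 stood apart on the first principal component, which held 33.7% of the variance, and 1 of them belongs to each guide. All 12 hepatocyte markers looked for were detected. Their summed level was 25382 to 30784 CPM (the count scaled to the size of the library) with sgKeap1-1 and 21943 to 29976 with sgKeap1-2. With sgCtrl it was 32724 to 49948 CPM. Of the markers of other cell types, 3 of 9 fibroblast, 0 of 7 endothelial and 3 of 9 blood and immune markers were tested, and none of them passed the test between the guides. The blood and immune markers summed to 949.8 to 1916 CPM with sgKeap1-1, 997.2 to 1646 CPM with sgKeap1-2 and 1303 to 2817 CPM with sgCtrl, almost all of it lysozyme (LYZ), with PTPRC, CD3E and HBB not in the table. The fibroblast markers summed to 51.1 to 88.2, 51.4 to 84.1 and 53.8 to 71.1 CPM in the same order. The measurement is of bulk RNA, so fewer cells of a kind and less RNA per cell cannot be told apart.

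Few genes separated the guides. By limma-voom with Benjamini-Hochberg adjustment 13 of 11152 genes (0.117%) passed an adjusted p of 0.05, of which 5 were higher with sgKeap1-2 (0.0448%) and 8 were lower (0.0717%). At an unadjusted p of 0.05 there were 483 higher genes (4.33%) and 468 lower genes (4.2%), 951 in all against 557.6 given by the threshold alone. The median log2 fold change of all genes was 0.015, and the 5th and the 95th percentiles were -0.35 and 0.35. For 11 of the 13 called genes the mean level with sgKeap1-1 lay between those with sgCtrl and sgKeap1-2, an order that 53% of all tested genes had. The exceptions were KEAP1 itself and PLAAT3.

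KEAP1 (chr19:10596801-10614234, minus strand, GRCh37), the gene that both guides target, was among the genes that rose. With siNC its level was 48.1, 59.2, 48.8 and 59.1 CPM in the sgKeap1-1 libraries and 79.3, 81.0, 72.1 and 77.1 CPM in the sgKeap1-2 libraries. With sitfeb/sitfe3 it was 52.2, 58.5, 49.0 and 63.5 CPM against 74.0, 78.0, 90.6 and 69.7 CPM. The 8 libraries of one guide did not overlap with the 8 of the other. The mean was 54.8 ± 6.0 CPM (SD, n = 8) with sgKeap1-1, 77.7 ± 6.4 with sgKeap1-2 and 85.0 ± 4.4 with sgCtrl, and the log2 fold change between the KEAP1 guides was 0.50 (SE 0.076, limma-voom adjusted p = 0.00145). Reads at the 3′ end count transcripts whether or not they carry a disrupting edit, so these values are no measure of how much KEAP1 protein was left.

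The partners of KEAP1 differed less. NFE2L2 averaged 182 CPM with sgKeap1-1 and 194 CPM with sgKeap1-2 (log2 fold change 0.08, SE 0.10, limma-voom adjusted p = 0.879). CUL3, RBX1 and NFE2L1, the small MAF proteins MAFF, MAFG and MAFK that pair with NRF2, and the repressor BACH1 (counted together with GRIK1-AS2, whose counts were identical) did not pass the adjusted test. SQSTM1, the autophagy receptor that binds KEAP1, had a log2 fold change of 0.30 (unadjusted p = 0.012) from a median of 517 CPM to 590 CPM. The siRNA targets were likewise not separated by guide. TFEB, at a mean of 11.9 and 10.5 CPM with siNC and 2.88 and 3.39 CPM with sitfeb/sitfe3, had an averaged log2 fold change of 0.03 (SE 0.26), and TFE3, at 49.1 and 54.9 CPM with siNC and 14.4 and 16.5 CPM with sitfeb/sitfe3, one of 0.17 (SE 0.17).

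The 4 other genes that rose with sgKeap1-2 were low in sgCtrl cells. PLA2G2A, a secreted phospholipase A2, had a lowest, median and highest level of 27.1, 44 and 56.1 CPM with sgKeap1-1 and 52.7, 72.1 and 109 CPM with sgKeap1-2, against a median of 5.91 CPM with sgCtrl. All but 1 of the sgKeap1-2 libraries lay above the highest sgKeap1-1 library, and the log2 fold change was 0.82 (SE 0.14, limma-voom adjusted p = 0.00726). SLC4A11, a membrane transporter of the bicarbonate transporter family, ran from 22.1 through 28.7 to 37.6 CPM with sgKeap1-1 and from 33.1 through 48.2 to 67.8 CPM with sgKeap1-2 (log2 fold change 0.71, SE 0.11, limma-voom adjusted p = 0.00227). FBLIM1, a filamin-binding adaptor at cell adhesions, ran from 41.1 through 59.1 to 69.7 CPM and from 64.4 through 82.4 to 102 CPM (0.51, SE 0.097, adjusted p = 0.0239). TSHZ2, a zinc finger homeobox protein, had the largest log2 fold change of the 13, 1.99 (SE 0.40, limma-voom adjusted p = 0.0307). Its mean was only 5.38 counts per library with sgKeap1-1 and 18.9 with sgKeap1-2. Its call was lost with edgeR, with DESeq2 and on leaving out any of 10 of the 16 libraries in turn.

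The 8 genes that fell had their highest levels in sgCtrl cells, except PLAAT3. SLC6A14, a transporter of neutral and cationic amino acids on chromosome X, measured 17.4, 22.2, 14.3 and 22.4 CPM with siNC; sgKeap1-1 and 10.4, 7.27, 9.04 and 14.5 CPM with siNC; sgKeap1-2. With sitfeb/sitfe3 it measured 26.2, 32.9, 19.8 and 19.0 CPM against 8.04, 6.15, 7.04 and 8.57 CPM. Only the highest sgKeap1-2 library reached the range of sgKeap1-1, and the averaged log2 fold change was -1.28 (SE 0.17, limma-voom adjusted p = 0.000358). MIXL1, a homeobox factor of early mesendoderm, did not overlap between the guides, with 32.1 to 54.9 CPM for sgKeap1-1, 17.0 to 26.9 CPM for sgKeap1-2 and 64.6 to 99.4 CPM for sgCtrl (-0.93, SE 0.13, adjusted p = 0.000358). EPB41L2, a membrane skeleton protein, also did not overlap, at 166 to 194 CPM against 116 to 155 CPM, with 243 to 292 CPM for sgCtrl. Its log2 fold change of -0.46 (SE 0.063) was the smallest of the called genes, with a limma-voom adjusted p of 0.000358.

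MTTP, the microsomal transfer protein that loads lipid onto apolipoprotein B, had a median of 121 CPM with sgCtrl, 28.0 CPM with sgKeap1-1 and 13.0 CPM with sgKeap1-2 (-0.94, SE 0.19, limma-voom adjusted p = 0.0307). This call was the least steady, being lost on leaving out any of 12 of the 16 libraries in turn. CRYBG1, a protein with crystallin-like domains, had medians of 39.7, 21.3 and 11.9 CPM in the same order (-0.73, SE 0.13, adjusted p = 0.00685). PLAAT3, a phospholipase and acyltransferase, stood at 17.7 to 26.4 CPM with sgKeap1-1 and 8.40 to 16.5 CPM with sgKeap1-2, with 13.2 to 31.5 CPM in sgCtrl, so that the sgKeap1-1 level was within the sgCtrl range (-0.82, SE 0.15, adjusted p = 0.0137). The remaining genes that fell, MT1M and MT1G, are metallothioneins and are described with their family.

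**Figure D1:**
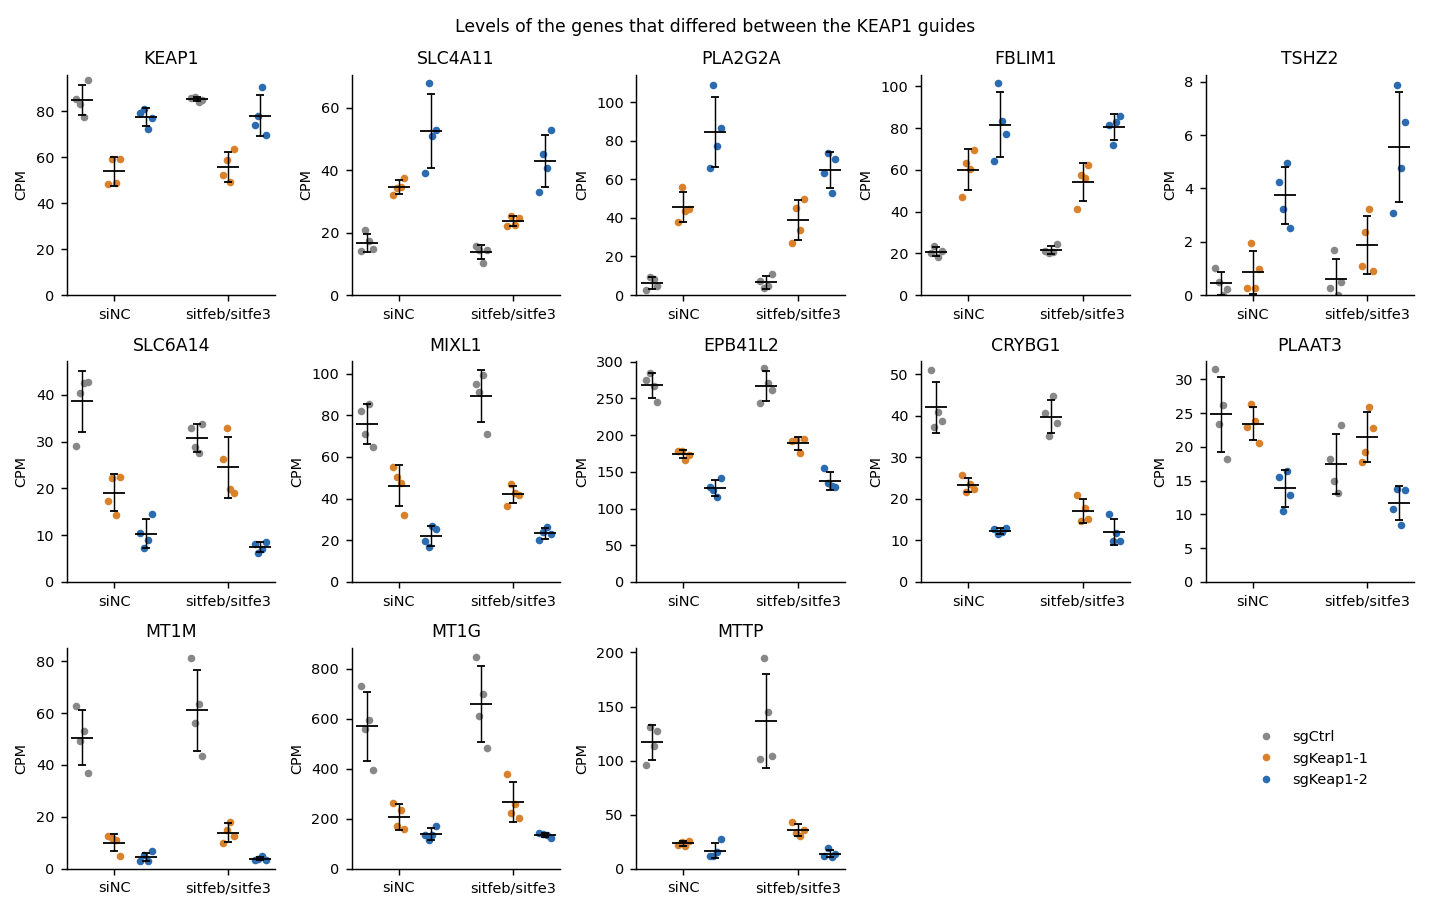
Level in CPM (vertical axes, from 0) of the 13 genes past an adjusted p of 0.05, under siNC and sitfeb/sitfe3, with a point for each library and the mean ± SD of each group of 4. KEAP1 was lower with sgKeap1-1 (mean 54.8 CPM) than with sgKeap1-2 (77.7 CPM), while for most other genes sgKeap1-2 lay farther from sgCtrl than sgKeap1-1 did.

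The plot of the called genes shows the libraries behind these tests. For genes such as PLA2G2A, SLC4A11 and FBLIM1 the order was sgCtrl, sgKeap1-1, sgKeap1-2 under either siRNA, and for MT1M, MT1G, MTTP, MIXL1 and EPB41L2 it was the reverse. KEAP1 shows another order, with sgKeap1-2 near sgCtrl and sgKeap1-1 below both.

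The number of calls depended on single libraries and on the replicate number. In the sample descriptions the libraries of one number carry the same prefix in all 6 groups, and no source used here says what the prefix stands for. Adding that number to the model as a block gave 48 called genes, 10 higher and 38 lower, with all 13 among them. Leaving out siNC; sgKeap1-2 replicate 1 gave 21 called genes, 12 of them among the 13. Leaving out siNC; sgKeap1-1 replicate 1 or replicate 3, siNC; sgKeap1-2 replicate 2 or replicate 3, or sitfeb/sitfe3; sgKeap1-2 replicate 4 gave 8 each, and leaving out sitfeb/sitfe3; sgKeap1-2 replicate 3 gave 7. KEAP1, SLC4A11, PLA2G2A, SLC6A14, MIXL1, CRYBG1 and EPB41L2 passed after any single one of the 16 libraries was left out. Without both libraries that stood apart 15 genes were called, 10 of them among the 13, and MT1M, MT1G and MTTP were then lost.

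**Figure D2:**
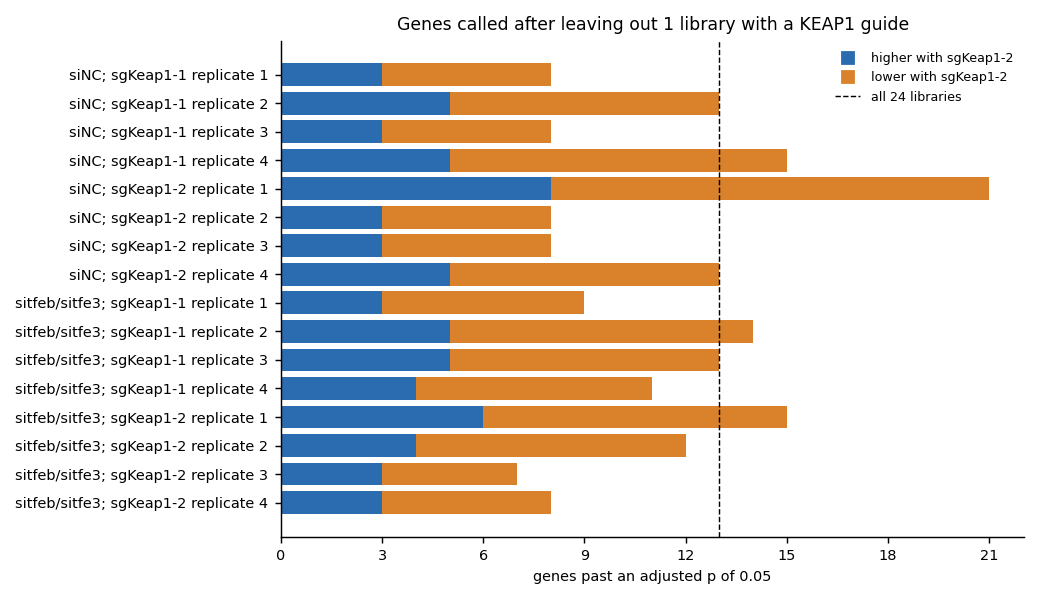
Number of genes past an adjusted p of 0.05 (horizontal axis) in the averaged guide comparison after leaving out 1 of the 16 libraries with a KEAP1 guide, split into genes higher and lower with sgKeap1-2. The dashed line is the 13 genes called with all libraries, and the counts run from 7 to 21.

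The plot of calls after leaving out a library shows that both directions shrank or grew together, with no library on which all calls rested.

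Within single siRNA treatments, where 4 libraries met 4, little passed. With siNC 0 of 11152 genes (0%) passed by limma-voom, with 598 at an unadjusted p of 0.05 and a smallest adjusted p of 0.061 for MIXL1 (log2 fold change -1.03, SE 0.18), while edgeR called 2 and DESeq2 9. With sitfeb/sitfe3 1 gene passed (0.00897%), SLC6A14 at a log2 fold change of -1.68 (SE 0.25, limma-voom adjusted p = 0.00431), with 856 at an unadjusted p of 0.05. The difference between the 2 guide differences was tested directly and 0 genes passed (0%), with 516 at an unadjusted p of 0.05, a smallest adjusted p of 0.896, and 0 calls by edgeR and by DESeq2. For SLC6A14 that difference was -0.79 (SE 0.34, unadjusted p = 0.0298, adjusted p = 0.896), so a larger guide difference under TFEB and TFE3 knockdown was not shown.

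Metallothioneins are small cysteine-rich proteins that bind zinc and copper, and their genes lie together on chromosome 16 and are switched on by the zinc-sensing factor MTF1 at metal response elements. Their reads can be shared between near-identical copies, so the split between members is uncertain. RefSeq promoter windows on GRCh38.p14, holding the 250 bases before the start, were at hand for MT1X and MT2A among the 7 metallothioneins tested. They are shown because metallothioneins were among the genes that fell. Capitals mark the letters TGCACNC or TGCGCNC on either strand.
MT1X, chr16:56682220-56682469, plus strand: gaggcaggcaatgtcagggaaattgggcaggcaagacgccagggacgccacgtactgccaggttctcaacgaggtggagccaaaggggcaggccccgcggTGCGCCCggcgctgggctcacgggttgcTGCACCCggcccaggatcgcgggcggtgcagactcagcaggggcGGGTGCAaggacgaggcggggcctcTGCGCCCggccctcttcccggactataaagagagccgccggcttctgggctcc
MT2A, chr16:56608334-56608583, plus strand: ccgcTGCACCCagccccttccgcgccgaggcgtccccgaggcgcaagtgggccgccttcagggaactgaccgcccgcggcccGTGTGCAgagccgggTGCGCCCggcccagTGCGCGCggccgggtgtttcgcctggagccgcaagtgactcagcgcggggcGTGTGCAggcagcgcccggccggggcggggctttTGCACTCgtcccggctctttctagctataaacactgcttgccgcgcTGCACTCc
The MT1X window held 4 such matches, the first at base 101 counted from its 5′ end, and the MT2A window held 7, the first at base 5. Of the windows of 9158 tested genes 33.7% held at least 1 match, so the letters are common and a match is not a site of binding.

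MT1M and MT1G were the list members that fell. MT1M measured 12.6, 11.7, 11.1 and 5.06 CPM with siNC; sgKeap1-1 and 3.11, 5.11, 3.16 and 6.67 CPM with siNC; sgKeap1-2. With sitfeb/sitfe3 it measured 9.94, 15.1, 18.2 and 12.6 CPM against 3.40, 3.69, 4.77 and 3.47 CPM. The guides overlapped under siNC and were apart under sitfeb/sitfe3, and sgCtrl stood at a median of 54.7 CPM. Its averaged log2 fold change was -1.45 (SE 0.28, limma-voom adjusted p = 0.0268). MT1G had medians of 603, 229 and 137 CPM with sgCtrl, sgKeap1-1 and sgKeap1-2 (-0.74, SE 0.15, adjusted p = 0.0268).

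The other metallothioneins had values in the same direction at an unadjusted p under 0.05. MT1F was just outside the threshold at -0.51 (adjusted p = 0.0524), followed by MT1A at -0.72, MT1E at -0.38, MT1X at -0.46 and MT2A at -0.24, with adjusted p-values from 0.161 to 0.576. MT1A was lower in every sgKeap1-2 library than in any sgKeap1-1 library. Together 7 of the 12 members of the metallothionein and zinc list were lower at an unadjusted p of 0.05 (58.3%, against 4.2% of all genes) and 0 were higher, and the median log2 fold change of the list was -0.31. The members that make up the 7 are the metallothioneins themselves. The zinc transporters SLC30A1 (0.12), SLC30A10 (-0.18), SLC39A4 (0.07) and SLC39A10 (0.24) and the regulator MTF1 (-0.15) had unadjusted p-values of 0.21 or more. The count of 7 was 5 without replicate 3 and 7 without the 2 libraries that stood apart.

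Cell cycle genes were the list with the lowest median, and none of its members passed the adjusted test. Of 32 genes 23 were lower with sgKeap1-2 at an unadjusted p of 0.05 (71.9%, against 4.2% of all genes), 0 were higher, and 31 had a negative value, with a median log2 fold change of -0.36. CDK1, the kinase that drives entry into mitosis, came closest to the threshold. It measured 56.5, 59.2, 57.8 and 50.1 CPM with siNC; sgKeap1-1 and 50.3, 25.0, 35.9 and 38 CPM with siNC; sgKeap1-2. With sitfeb/sitfe3 it measured 74.0, 58.3, 60.7 and 54.7 CPM against 63.7, 43.3, 35.4 and 42.1 CPM. The library numbered 1 was the highest of its group for sgKeap1-2 under either siRNA. The averaged log2 fold change was -0.54 (SE 0.12, limma-voom adjusted p = 0.0667), and 8 of 39 alternatives passed, with adjusted p-values from 0.00163 to 0.948 over all 39. The 8 were the replicate block (0.00547), DESeq2 (0.014), library quality weights (0.00205), and the fits without replicate 1, without both libraries that stood apart, and without siNC; sgKeap1-1 replicate 4 or either sgKeap1-2 library numbered 1.

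The other members with values in that direction belong to DNA replication and to mitosis. Those of DNA replication were MCM2 (-0.38), MCM3 (-0.24), MCM4 (-0.49), MCM5 (-0.50) and MCM7 (-0.29) of the replicative helicase, the sliding clamp PCNA (-0.35), the licensing factors CDC6 (-0.39) and CDT1 (-0.29), TYMS (-0.40) and RRM1 (-0.35), which make deoxynucleotides, and the S phase factor E2F1 (-0.50). Those of mitosis were PLK1 (-0.49), AURKA (-0.37), AURKB (-0.52), CCNA2 (-0.50), CCNB1 (-0.37), CCNB2 (-0.30), BIRC5 (-0.30), KIF11 (-0.49), TOP2A (-0.36) and CDC20 (-0.49), the activator of the anaphase-promoting complex. CCNE2 had the lowest value of the list (-0.87) at a mean of 3.11 CPM with sgKeap1-1 and 1.73 CPM with sgKeap1-2. All of these had unadjusted p-values under 0.05 and adjusted p-values of 0.20 or more.

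The CDC20 window is shown as one of those that held more than 1 match to TTTGAA, the letters of the cell cycle homology region through which mitotic genes are repressed outside division. Capitals mark the letters on either strand.
CDC20, chr1:43358731-43358980, plus strand, GRCh38.p14: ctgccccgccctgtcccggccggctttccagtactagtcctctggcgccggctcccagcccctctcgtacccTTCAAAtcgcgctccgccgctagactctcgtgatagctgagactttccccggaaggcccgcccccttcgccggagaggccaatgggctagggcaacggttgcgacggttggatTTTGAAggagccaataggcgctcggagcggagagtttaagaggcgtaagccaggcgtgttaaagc
It held 2 matches, at bases 73 and 186. Of the 26 cell cycle genes with a window 8 held a match (30.8%), and of all windows 8.46% did.

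The cell cycle level also moved with the replicate number. The list summed to 3631 to 5500 CPM with sgKeap1-1 (median 4046), 2730 to 4826 CPM with sgKeap1-2 (median 3358) and 3982 to 6729 CPM with sgCtrl (median 4896). The library numbered 1 had the highest sum in 6 of 6 groups. Among same-guide libraries the highest sums were thus 5500 and 4646 CPM for sgKeap1-1 and 4268 and 4826 CPM for sgKeap1-2, and 6 of the 8 sgKeap1-2 libraries lay below the lowest sgKeap1-1 library. Without the 2 libraries that stood apart the count of genes at an unadjusted p of 0.05 was again 23. It was 26 without replicate 1, 14 without replicate 2, 6 without replicate 3 and 18 without replicate 4. It went down to 14 without siNC; sgKeap1-1 replicate 1, to 12 without siNC; sgKeap1-2 replicate 2, to 13 without sitfeb/sitfe3; sgKeap1-1 replicate 1 and to 14 without sitfeb/sitfe3; sgKeap1-2 replicate 3, and the median stayed between -0.45 and -0.28 in every alternative.

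**Figure D3:**
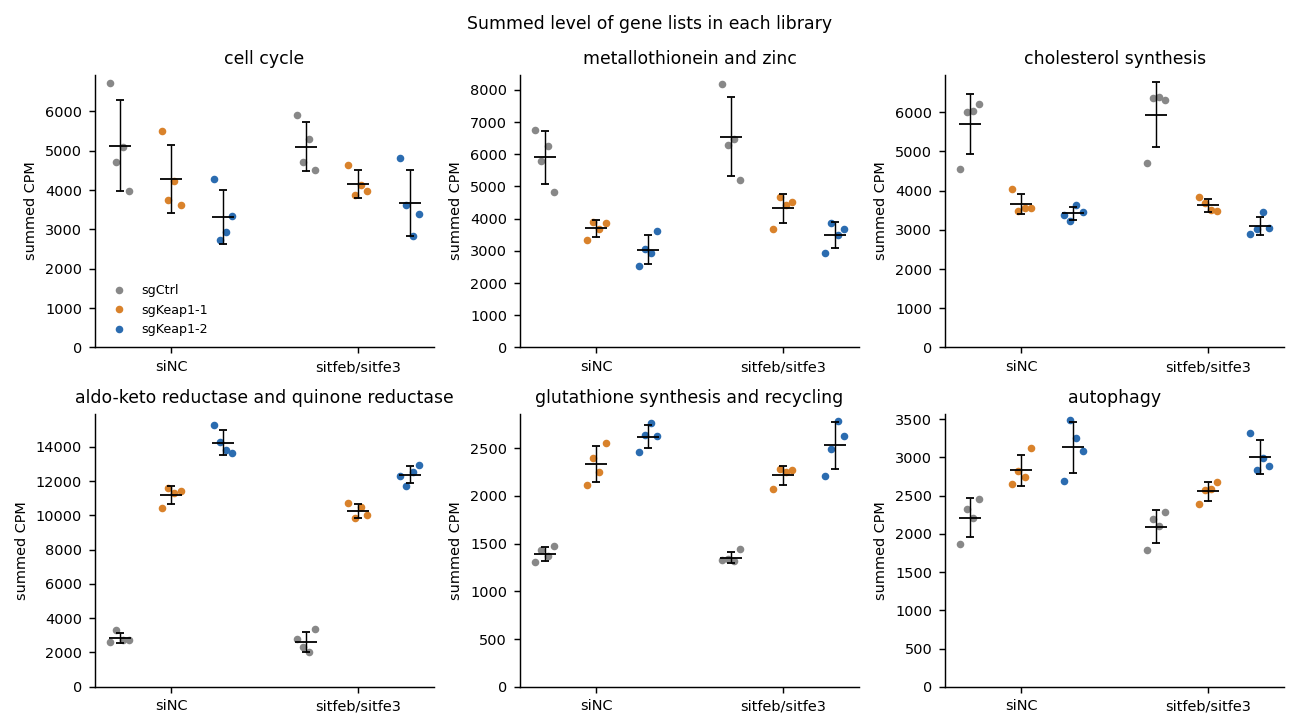
Summed level in CPM (vertical axes, from 0) of 6 gene lists in each library, under siNC and sitfeb/sitfe3, with a point for each library and the mean ± SD of each group of 4. The aldo-keto and quinone reductases summed to 11736 CPM or more in every sgKeap1-2 library and to 11589 CPM or less in every sgKeap1-1 library, and the library numbered 1 (leftmost in each group) was the highest for the cell cycle.

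Lists of the NRF2 response differed in how many values were positive, against 6033 of 11152 for all genes. Positive values were held by 11 of 12 aldo-keto and quinone reductases, 12 of 13 other reported targets (KEAP1 among them) and 9 of 15 glutathione genes. The counts were 7 of 12 for NADPH supply, 12 of 17 for transferases, glucuronidation and efflux, and 5 of 9 for heme and iron. Of the thioredoxin and peroxiredoxin genes 4 of 11 were positive. The aldo-keto reductase and quinone reductase list, enzymes that reduce reactive carbonyls and quinones, had 7 of 12 members higher at an unadjusted p of 0.05 (58.3%, against 4.33% of all genes), 0 lower and a median log2 fold change of 0.24. No member passed the adjusted test in the main limma-voom fit, while AKR1C1 passed in some alternatives, among them the block and library quality weights. Its sum did not overlap between the guides, with 9837 to 11589 CPM for sgKeap1-1 and 11736 to 15262 CPM for sgKeap1-2, against 2026 to 3377 CPM for sgCtrl. The plot of list sums shows this gap under each siRNA.

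AKR1C1, a hydroxysteroid dehydrogenase with near-identical copies, ran from 3038 through 3658 to 4133 CPM with sgKeap1-1 and from 3791 through 4667 to 5516 CPM with sgKeap1-2, and from 608 through 974 to 1275 CPM with sgCtrl. The guides overlapped in 2 of the 8 sgKeap1-2 libraries, with a log2 fold change of 0.37 (SE 0.089, limma-voom adjusted p = 0.161). AKR1C1 passed in 6 of 39 alternatives. The lowest adjusted p was 0.0022, with the 16 KEAP1 guide libraries alone. The gene also passed with the replicate block (adjusted p = 0.0478), library quality weights (0.0263) and without replicate 1 (0.0355). Another of the 39 called only differences of 0.5 or more on the log2 scale, in either direction. AKR1C1 lay below that size and could not pass there. NQO1, the quinone reductase used as a standard readout of NRF2, did not overlap between the guides. It measured 1497, 1618, 1620 and 1637 CPM with siNC; sgKeap1-1 and 1892, 1750, 1822 and 1733 CPM with siNC; sgKeap1-2. With sitfeb/sitfe3 it measured 1562, 1619, 1651 and 1527 CPM against 1774, 1673, 1944 and 1832 CPM. The difference was small (log2 fold change 0.18, SE 0.055, adjusted p = 0.289) beside the level of 675 CPM in sgCtrl. PTGR1 (0.43), AKR1C3 (0.28), CBR1 (0.24), ALDH1A1 (0.23) and ALDH3A2 (0.19) made up the rest of the 7, a count that was 4 without replicate 2.

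Of 15 glutathione genes 4 were higher at an unadjusted p of 0.05 (26.7%, against 4.33% of all genes) and 0 lower. Without replicate 2 or replicate 3 the count was 2. Of the 15 values 9 were positive and 6 negative, and the median was 0.19, with 0.06 under siNC and 0.04 under sitfeb/sitfe3. GCLC is the catalytic subunit of the enzyme that limits glutathione synthesis. Its medians were 64.2, 149 and 192 CPM with sgCtrl, sgKeap1-1 and sgKeap1-2 (0.31, SE 0.071, limma-voom adjusted p = 0.114). GCLC passed in 3 of 39 alternatives, the lowest adjusted p being 0.0189 with DESeq2. Like AKR1C1, GCLC could not pass in the alternative that required a difference of 0.5. Its modifier subunit GCLM had medians of 61.0, 224 and 258 CPM (0.28), and the others were GSR, which recycles oxidised glutathione (0.19), and SLC3A2, a chain of the cystine importer (0.27). The GCLM window is shown because it held the letters TGACNNNGC, the core of the antioxidant response element, once. Capitals mark them, here on the strand opposite to the gene.
GCLM, chr1:93909431-93909680, minus strand, GRCh38.p14: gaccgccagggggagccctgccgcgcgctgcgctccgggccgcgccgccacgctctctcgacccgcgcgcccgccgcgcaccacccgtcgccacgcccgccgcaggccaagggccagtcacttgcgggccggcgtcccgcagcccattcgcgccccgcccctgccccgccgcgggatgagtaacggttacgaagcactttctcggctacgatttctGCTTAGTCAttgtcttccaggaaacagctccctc
The match began at base 217, and 12.1% of all windows held one, against 12 of 67 (17.9%) among the genes of the redox lists with a window.

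Other NRF2 target lists differed in their counts at an unadjusted p of 0.05. Of 13 other reported targets 6 were higher (46.2%) with a median log2 fold change of 0.27, a count that was 3 without replicate 2 or replicate 3. They included KEAP1, the gene that both guides target. The others were the redox regulator OSGIN1 (0.35), the taurine transporter SLC6A6 (0.27), PIR (0.29), CYP4F11 (0.30) and TALDO1 of the pentose phosphate pathway (0.19), which is also in the NADPH supply list. Of 11 thioredoxin and peroxiredoxin genes TXNRD1, the thioredoxin reductase, was at 0.44 (unadjusted p = 0.00356) with 221 to 521 CPM against 376 to 805 CPM. The 221 and the 805 CPM were those of the 2 libraries that stood apart, and the latter was the one sgKeap1-2 library above the highest sgKeap1-1 library. In the same list TXNIP, an inhibitor of thioredoxin that is induced by glucose, was at -1.05 (unadjusted p = 0.00606), 7 of the 11 values were negative and the median was -0.02. Of 12 NADPH supply genes TALDO1 was higher and MTHFD1 (-0.26) and RPIA (-0.28) were lower. Of 17 genes for glutathione transferases, glucuronidation and efflux the transporters ABCC2 (0.35) and ABCG2 (0.33) and the glucuronosyltransferase UGT2B7 (0.23) were higher. ABCC2 was at 0.14 under siNC and 0.56 under sitfeb/sitfe3. Its highest level, 242 CPM, was in sitfeb/sitfe3; sgKeap1-2 replicate 1, which stood apart. Of 9 heme and iron genes the iron exporter SLC40A1 (0.33) and the biliverdin reductase BLVRB (0.24) were higher. None of these but KEAP1 passed the adjusted test, and the background was 4.33% higher and 4.2% lower.

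**Figure D4:**
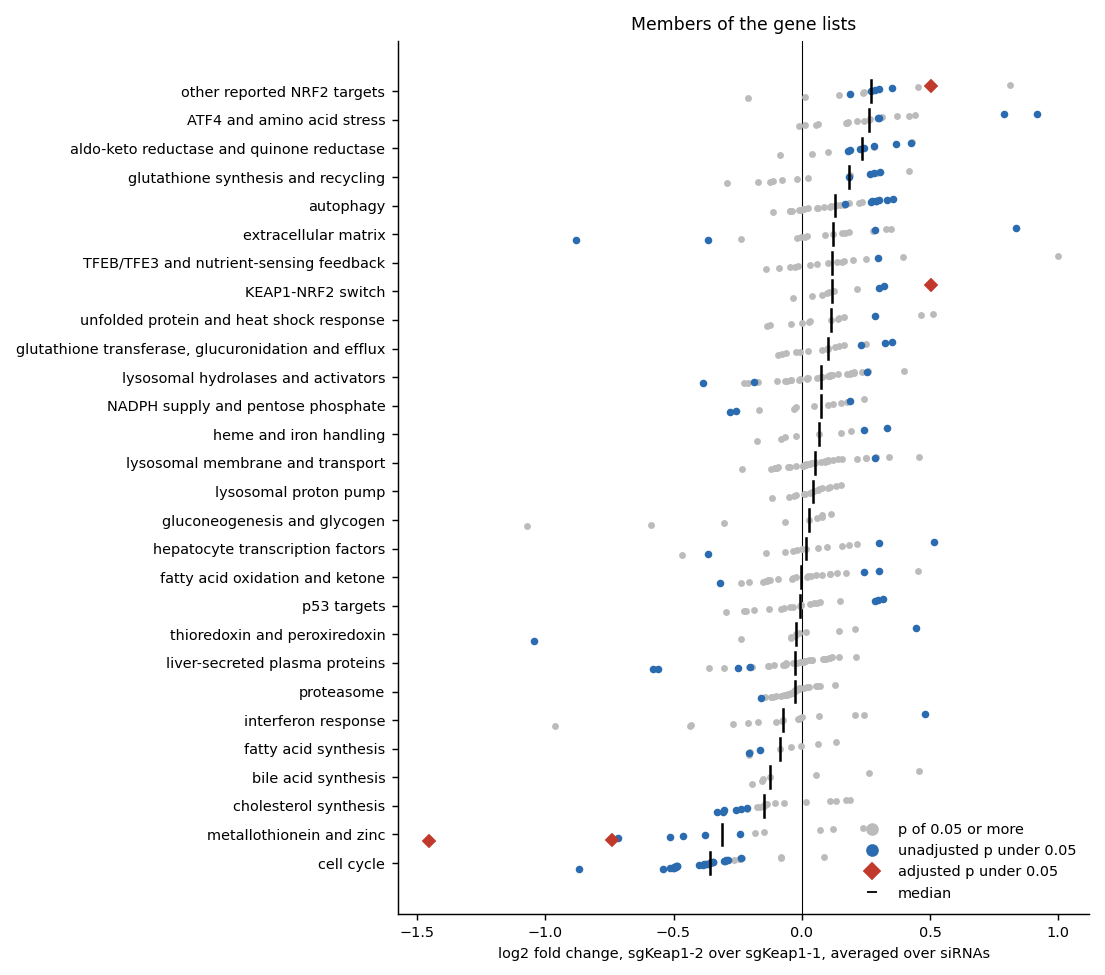
Log2 fold change of sgKeap1-2 over sgKeap1-1, averaged over siRNAs (horizontal axis), for each tested member of 28 gene lists ordered by their median (vertical axis), with blue points at an unadjusted p under 0.05 and red diamonds at an adjusted p under 0.05. The medians run from -0.36 for the cell cycle to 0.27 for other reported NRF2 targets, and KEAP1, MT1M and MT1G are the members past the adjusted threshold.

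The plot of list members places the lists on 1 scale. Lysosomal genes, which are those that TFEB and TFE3 are known to drive, sat close to 0. The median was 0.08 for hydrolases and activators (0.08 under siNC, 0.05 under sitfeb/sitfe3). For membrane and transport genes it was 0.05 (0.10 under siNC, -0.04 under sitfeb/sitfe3), against 0.015 for all genes. In these 2 lists 24 of 37 and 27 of 36 values were positive, against 6033 of 11152 for all genes. Of 16 proton pump subunits 0 were higher or lower at an unadjusted p of 0.05, with a median of 0.04, and ATP6V1E1 had the smallest p at 0.15 (unadjusted p = 0.0568). Of 37 hydrolases and activators 1 was higher at an unadjusted p of 0.05, the alpha-galactosidase GLA (0.25), and 2 were lower, among them the cathepsin CTSH (-0.19). Of 36 membrane and transport genes ENTPD4 was higher (0.28), and of 16 genes of TFEB/TFE3 and nutrient-sensing feedback SESN2 was higher (0.30), each at an unadjusted p of 0.05. None of these passed the adjusted test, and the shares were read against 4.33% higher and 4.2% lower of all genes.

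Autophagy genes stood a little above. Of 30 genes 8 were higher at an unadjusted p of 0.05 (26.7%, against 4.33% of all genes), 0 were lower, and the median was 0.13. They were the receptors SQSTM1 (0.30), TAX1BP1 (0.29) and BNIP3L (0.27), the ATG8 family members MAP1LC3B (0.29) and GABARAPL1 (0.27), the ATG8-conjugating enzyme ATG3 (0.36), and ULK1 (0.33) and ATG13 (0.17) of the initiating kinase complex. TAX1BP1 ran from 395 to 491 CPM with sgKeap1-1 and from 426 to 868 CPM with sgKeap1-2. The 868 CPM was that of sitfeb/sitfe3; sgKeap1-2 replicate 1, which stood apart. Its log2 fold change was 0.12 under siNC and 0.46 under sitfeb/sitfe3. None passed the adjusted test, and the count of 8 was 3 without replicate 2, 3 without replicate 3 and 5 without replicate 4. It went down to 4 without siNC; sgKeap1-1 replicate 1, siNC; sgKeap1-2 replicate 3, sitfeb/sitfe3; sgKeap1-1 replicate 1 or sitfeb/sitfe3; sgKeap1-2 replicate 4, and to 5 without siNC; sgKeap1-2 replicate 2 or sitfeb/sitfe3; sgKeap1-2 replicate 3.

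Of 22 cholesterol synthesis genes 6 were lower at an unadjusted p of 0.05 (27.3%, against 4.2% of all genes) and 0 higher, with a median of -0.15, and no member passed the adjusted test. Among them were ACAT2 (-0.26) and HMGCS1 (-0.24) of the early steps and the sterol isomerase EBP (-0.30). EBP had medians of 192, 114 and 91.2 CPM with sgCtrl, sgKeap1-1 and sgKeap1-2 (limma-voom adjusted p = 0.239). The list summed to 4548 to 6398 CPM with sgCtrl, 3477 to 4030 CPM with sgKeap1-1 and 2901 to 3630 CPM with sgKeap1-2, and 7 of the 8 sgKeap1-2 libraries lay below the lowest sgKeap1-1 library. The count of 6 was 3 without replicate 2 and 3 without replicate 4. Of 9 fatty acid synthesis genes FADS1 (-0.21) and FASN (-0.16) were lower at an unadjusted p of 0.05, while the median of the list was 0.05 under siNC and -0.145 under sitfeb/sitfe3. At the same threshold, of 24 genes of fatty acid oxidation and ketone formation CPT1A (0.24) and PPARA (0.30) were higher and HADH (-0.32) was lower, and none of these genes passed the adjusted test.

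Stress genes were mixed. In the ATF4 and amino acid stress list 18 of 19 genes had a positive value, 4 were higher at an unadjusted p of 0.05 (21.1%, against 4.33% of all genes) and the median was 0.26. DDIT3, the stress factor CHOP, measured 22.2, 16.9, 17.9 and 31.1 CPM with siNC; sgKeap1-1 and 17.8, 47.9, 46.1 and 30.6 CPM with siNC; sgKeap1-2. With sitfeb/sitfe3 it measured 11.3, 9.64, 10.7 and 14.2 CPM against 12.1, 26.8, 29.3 and 22.2 CPM. The guides overlapped, the library numbered 1 being the lowest of its group with sgKeap1-2, and the log2 fold change was 0.79 (SE 0.22, limma-voom adjusted p = 0.239). DDIT3 passed in 5 of 39 alternatives, with DESeq2 (adjusted p = 0.0188), the replicate block (0.0478), library quality weights (0.0193), without replicate 1 (0.003) and without siNC; sgKeap1-2 replicate 1 (0.0471), and the adjusted p ran from 0.003 to 0.968 over all of them. The other 3 were VLDLR (0.92), NUPR1 (0.30) and SESN2 (0.30). The library numbered 1 had the lowest sum of the list in 6 of 6 groups, and the count of 4 was 13 without replicate 1 and 1 without replicate 3. Over the single libraries it ran from 1, without sitfeb/sitfe3; sgKeap1-2 replicate 3, to 8, without sitfeb/sitfe3; sgKeap1-2 replicate 1. It was 2 without siNC; sgCtrl replicate 3, without replicate 1, 2 or 3 of siNC; sgKeap1-1, without replicate 2 or 3 of siNC; sgKeap1-2, without replicate 1 or 3 of sitfeb/sitfe3; sgKeap1-1, and without replicate 2 or 4 of sitfeb/sitfe3; sgKeap1-2. At an unadjusted p of 0.05 HSPA5, the chaperone of the endoplasmic reticulum, was higher (0.29) among 13 unfolded protein genes (7.69%), and TP53INP1 (0.32), BBC3 (0.29) and SESN2 among 20 p53 targets (15%). Of the p53 targets 0 were lower at that threshold, but 12 of the 20 values were negative and 8 positive, with a median of -0.006. The interferon and proteasome lists were near the 4.33% and 4.2% of all genes, with OAS1 at 0.48 the 1 of 17 (5.88%) and PSMD1 at -0.16 the 1 of 32 (3.12%) under that threshold. None of the stress genes named here passed the adjusted test in the main limma-voom fit.

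Hepatocyte products lay near 0 except for a few. Of 34 liver-secreted plasma proteins 4 were lower (11.8%, against 4.2% of all genes) and 0 higher at an unadjusted p of 0.05, with a median of -0.03, and none passed the adjusted test. RBP4, the retinol carrier, had medians of 711, 484 and 428 CPM with sgCtrl, sgKeap1-1 and sgKeap1-2 (-0.25, limma-voom adjusted p = 0.240), and alpha-fetoprotein, AFP, had a value of -0.56, APOA1 of -0.20 and SERPINA3 of -0.58. Albumin, ALB, was at -0.06 (unadjusted p = 0.43). Of 15 hepatocyte transcription factors 2 were higher at that threshold (13.3%, against 4.33% of all genes), NR1I2 (0.51) and PPARA (0.30). In the same list 1 was lower (6.67%, against 4.2%), and none passed the adjusted test. None of the 9 gluconeogenesis or 7 bile acid genes had an unadjusted p under 0.05, SLC37A4 (-0.30) and SLC51B (0.46) having the smallest. Of 17 extracellular matrix genes the laminin chain LAMC3 had the largest value, 0.84 (SE 0.20, limma-voom adjusted p = 0.158, and 0.00755 to 0.911 over 39 alternatives, of which 4 passed), with 0.249, 6.69 and 12.6 CPM as medians with sgCtrl, sgKeap1-1 and sgKeap1-2. The laminin chain LAMB1 was at 0.28, the matricellular factor CCN2 at -0.37 and the collagen COL2A1 at -0.88 on means of 6.37 and 3.29 CPM. Of the 17 matrix genes 2 were higher and 2 lower at an unadjusted p of 0.05 (11.8% each, against 4.33% and 4.2% of all genes). None of the 17 passed the adjusted test in the main limma-voom fit.

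**Figure D5:**
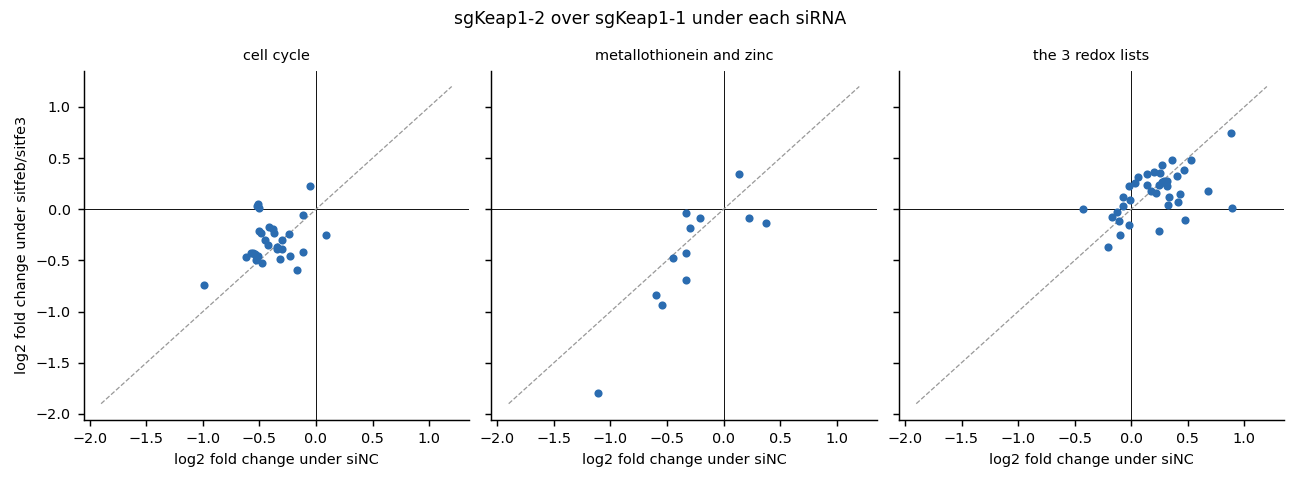
Log2 fold change of sgKeap1-2 over sgKeap1-1 under siNC (horizontal axis) and under sitfeb/sitfe3 (vertical axis), with a point for each tested gene of the cell cycle list, of the metallothionein and zinc list, and of the 3 redox lists (aldo-keto and quinone reductase, glutathione, other reported NRF2 targets). MT1M lies lowest in the middle panel, at -1.11 and -1.80, and the dashed line marks equal values.

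The guide difference had the same direction under each siRNA for these lists. The median log2 fold change was -0.44 under siNC and -0.38 under sitfeb/sitfe3 for the cell cycle, -0.33 and -0.31 for metallothionein and zinc, and 0.27 and 0.21 for the aldo-keto and quinone reductases. For cholesterol synthesis it was -0.12 and -0.21, and for autophagy 0.11 and 0.15. For all tested genes it was 0.01 under each siRNA. The plot of both siRNAs shows these members gene by gene, from libraries that the 2 comparisons did not share. Same-numbered libraries carry the same prefix under both siRNAs, so the 2 comparisons are not known to be independent.

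Counted without a model, 4 of 11152 genes (0.0359%) were higher in all 8 sgKeap1-2 libraries than in any sgKeap1-1 library and 7 (0.0628%) were lower. The 4 were KEAP1, NQO1, GCNT2, a branching glycosyltransferase (0.24), and TRAF3IP2, a signalling adaptor of the interleukin-17 receptor (0.57). The 7 were EPB41L2, MIXL1, PLAAT3, MT1A, the cytochrome P450 reductase POR (-0.17), the kinetochore protein ZWILCH (-0.35) and the matrix protein VWA1 (-0.30). GCNT2, TRAF3IP2, POR, ZWILCH and VWA1 were named after their values were seen.

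The 10 tested genes nearest to KEAP1 on chromosome 19 were not called, and 0 of them had an unadjusted p under 0.05. On the one side these were ICAM4, ICAM3, TYK2, CDC37 and PDE4A, and on the other ATG4D, KRI1, CDKN2D, AP1M2 and SLC44A2. Their log2 fold changes ran from -0.11 to 0.47 and the smallest unadjusted p was 0.109. KEAP1 was the one gene of this stretch that passed the test between the guides.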

How the data were processed

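Gene expression in HepG2 cells was measured by QuantSeq 3′ mRNA sequencing in 24 libraries, 4 in each of 6 groups. Per the labels, the authors used FastQC 0.72, cutadapt 1.16, STAR 2.7.5b and featureCounts 1.6.3 to make the deposited table of read counts per gene, which are not normalized. Their processing notes name hg38 and their methods hg19, so the build of the counts is unsettled, which does not alter the gene names. Of 13446 rows 1414 named no gene (1.35 to 2.57% of the reads) and were left out, and rows that shared an ID were summed. IDs with identical counts (160 IDs) were kept as 78 features. No row totalled under 15 reads, and 0 columns belonged to no sample. The sample descriptions give libraries of one replicate number the same prefix in all 6 groups, and no source used here says whether it marks a culture, a day or a run. P-values therefore measure the spread between these libraries, which may be technical. The methods give limma-voom, which was the main test (limma 3.58.1, edgeR 4.0.16 for TMM factors and for its filter on low counts, R 4.3.3), fitted to all 24 libraries with 6 group means and with Benjamini-Hochberg adjustment over 11152 genes. It was tested on simulated data first. edgeR's quasi-likelihood test and DESeq2 1.42.0 were alternatives. Levels are TMM-scaled CPM. Genes were named by a rule: KEAP1, NFE2L2, TFEB and TFE3, the called genes with a mean of at least 10 counts, for each list its called members or else the member of smallest p, and the 5 tested genes on each side of KEAP1. Other list members were named after their values were seen, and a few members are not reported here. The comparison, the lists and the rule were chosen with earlier results of these data known. Positions on GRCh37 are from GENCODE, and promoter windows are from RefSeq on GRCh38.p14, found for 9158 of the tested genes and 10 of the 13 called ones. Same-numbered libraries of 2 groups deviated together (r over 0.1) in 11 of 24 pairs, with r from -0.1 to 0.51. The library numbered 1 also had the highest cell cycle sum in 6 of 6 groups. The main fit nevertheless took no account of the replicate number, and its count of 13 called genes depends on that choice. With the number as a block, which is an alternative, 48 genes were called.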

Additional observations from a re-analysis of the deposited data

Results flagged for a closer look

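Within groups of 4 libraries the gap of the highest or lowest value to its neighbour was compared with the range of the group, for the 13 called genes and for NFE2L2, TFEB and TFE3. Of 96 groups 3 held a value past Dixon's critical value at the 95% level, where chance alone flags about 1 in 20. EPB41L2 was at 175 CPM in sitfeb/sitfe3; sgKeap1-1 replicate 3, below the 192 to 194 CPM of the other 3 libraries. SLC6A14 was at 28.9 CPM in siNC; sgCtrl replicate 1, below the 40.4 to 42.7 CPM of the rest. TFEB was at 3.96 CPM in sitfeb/sitfe3; sgCtrl replicate 4, above the 2.10 to 2.32 CPM of the rest.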

How the results depend on the processing

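The 13 called genes kept their direction under all 39 alternatives, and the difference between the siRNAs had 0 calls in each. Leaving out a library or a replicate number moved the averaged count between 0 and 99, the lowest without replicate 2 and the highest without replicate 1. Without replicate 3 it was 2 and without replicate 4 it was 7. The count for siNC then ran from 0 to 3 and for sitfeb/sitfe3 from 0 to 8. The averaged, siNC and sitfeb/sitfe3 counts were 46, 9 and 20 with DESeq2, which kept 12 of the 13 genes, and 55, 3 and 5 with library quality weights. The replicate block gave 48, 2 and 11, keeping all 13 genes. Of 24 pairs of same-numbered libraries 10 were the best match among the libraries of the other group. edgeR gave 2 for siNC and 3 for sitfeb/sitfe3. The sitfeb/sitfe3 count was 2 with library totals only, 3 with the 16 KEAP1 guide libraries alone and 4 without the 2 libraries that stood apart. The cause of these shifts was not tested. The uncalled genes TFEB and NFE2L2 changed sign. TFEB was at -0.0879 with the 16 libraries alone, where guide and siRNA were fitted as separate terms. It was at -0.0485 with quality weights, -0.000448 without the 2 libraries that stood apart, and -0.320 to 0.236 when libraries were left out. NFE2L2 was at -0.013 with quality weights, -0.0568 without the 2 libraries that stood apart, and -0.0507 to 0.138 when libraries were left out. Alternatives for the list counts were added after seeing the data. At 3527000 to 4600951 reads a library, genes of a few counts such as TSHZ2 are measured loosely.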
